A study of Rattus norvegicus with 150 samples.

Results

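Muscle that had carried cobalt (Co) cylinders for 1 month was compared with muscle that had carried tantalum (Ta) cylinders for the same time. All 8 Co libraries and all 7 Ta libraries of that time entered the comparison, 15 of the 150 RNA-seq libraries of the series. Tantalum was the sham metal of the study, so both groups had the same surgery and a solid implant. The rats were male Sprague-Dawley animals, about 30 days old when bought and kept for at least 2 weeks before the experiments. Each rat received 4 cylinders of 1 mm by 2 mm in the gastrocnemius, a calf muscle, with 2 in each limb. Libraries of nickel (Ni), depleted uranium (DU) and a metal labelled P at 1 month, 8 of each, served as further implanted metals, and 8 Co and 8 Ta libraries of 3 months as a later time. The design text lists lead among the sequenced metals, but the labels write P, which is kept here. The study planned 8 rats per group. The labels tie no library to a particular rat, so the p-values below measure the spread between libraries, and no lane or batch of any library is given in the sources used here.

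Cobalt metal in tissue corrodes and releases cobalt ions. These ions are known for mimicking low oxygen, because they inhibit the prolyl hydroxylases that mark hypoxia-inducible factors for breakdown. Any implant in muscle also provokes a foreign body response, in which macrophages gather at the surface, may fuse into giant cells, and are joined by fibroblasts that lay down a capsule, while injured fibres are rebuilt from muscle stem cells. The measured genes could not be placed in any of these processes, since the count table carries Ensembl identifiers and 0 of its 32545 identifiers could be paired with a name. For the same reason the 41 gene lists prepared for such processes and cell types were not measured, and muscle could not be checked against its marker genes. Genes are therefore described by identifier, level, library and time. In bulk tissue, fewer cells of a type and less RNA per cell cannot be told apart.

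With Co, genes that were scarce in Ta muscle stood higher in some libraries, by an amount that differed greatly from library to library. Of 13453 genes with sufficient counts at 1 month, 93 were over 2-fold above the highest Ta library in at least 5 of the 8 Co libraries, while 788 were so in exactly 1 and 971 in exactly 2. No gene met an adjusted p under 0.05 between the groups (0 of 12512 tested, 0%, edgeR quasi-likelihood test with Benjamini-Hochberg adjustment), and the lowest adjusted p was 0.126. At an unadjusted p under 0.05, 1820 genes (14.5%) differed, of which 1358 (10.9%) were higher and 462 (3.69%) lower with Co. The higher genes also differed by more, since 787 of them exceeded 2-fold and 331 exceeded 4-fold, against 76 and 9 of the lower genes. Without Co replicate 1 there were 879 higher genes at that p, without replicate 3 there were 865, and without both 488 of 848. The number of adjusted calls depended on the method. Limma voom with sample quality weights also called 0, with 1825 genes at an unadjusted p under 0.05. DESeq2 called 879 higher and 79 lower genes, and edgeR with all 150 libraries in 1 model, where the spread was estimated over 19 groups, called 1529 higher and 168 lower. Over all genes tested, the median log2 fold change was 0 with TMM scaling and 0.18 without scaling factors, where 1977 of 2164 genes with an unadjusted p under 0.05 were higher, so the share of higher genes moved with the scaling.

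The Co libraries differed from each other before any gene was tested. Total counts were 14098045 to 16311986 with Co and 13278341 to 18517974 with Ta, and the ranges overlapped. The number of genes of at least 1 CPM (counts scaled to a library of equal size) was 12795 and 12728 in Co replicates 1 and 3. Replicates 2, 4 and 5 had 12078, 11923 and 12006 such genes, replicates 6, 7 and 8 had 11390, 11492 and 11354, and the Ta libraries had 11445 to 11805. Replicates 1 to 5 thus lay above every Ta library, while replicates 6 and 8 lay below. The 50 most abundant genes took 40.8% and 33.7% of the counts in replicates 1 and 3. Their share was 47.4% to 54.3% in the other 6 Co libraries and 47.9% to 55% with Ta. The transcriptomes of replicates 1 and 3 were spread over more genes and less concentrated in the most abundant ones than any other library of 1 month.

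**Figure D1:**
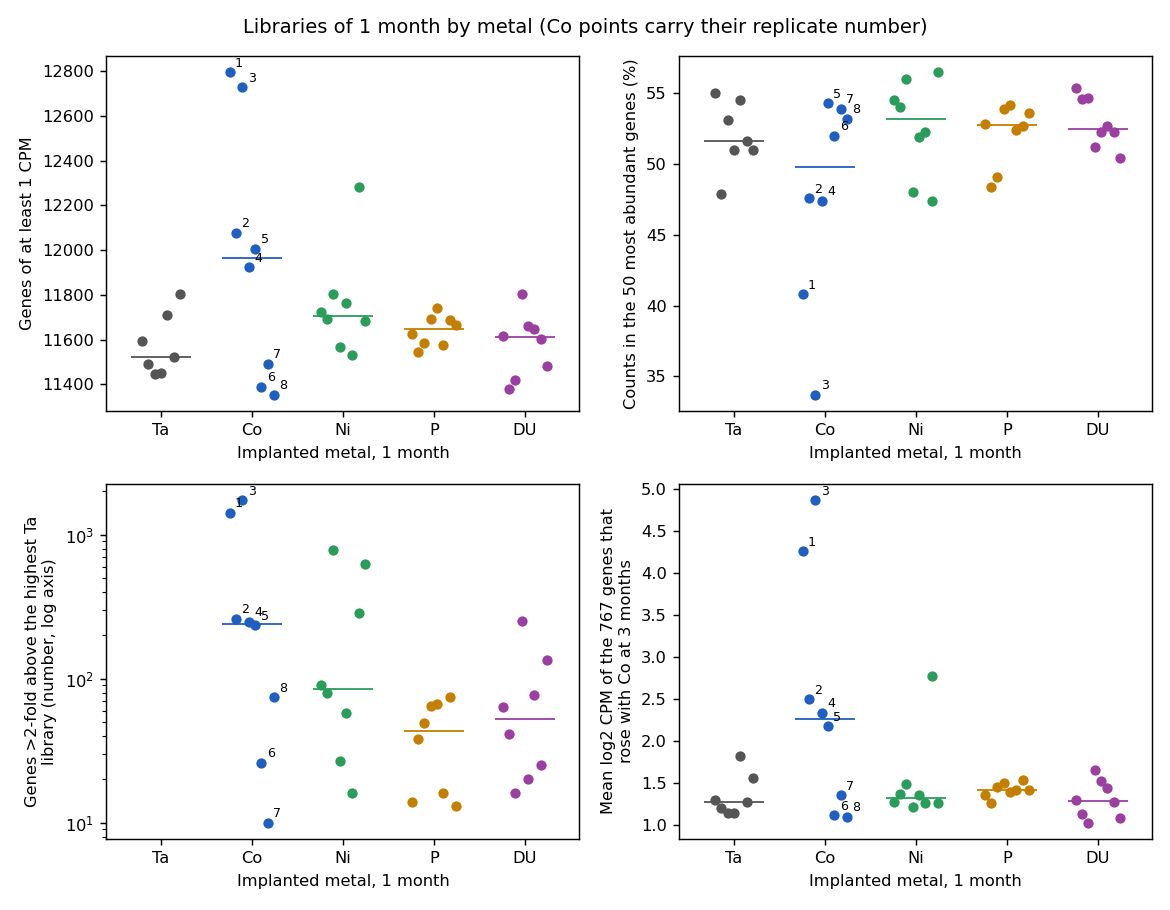
Each point is 1 library of 1 month, grouped by implanted metal, and lines are group medians. Panels give the number of genes of at least 1 CPM and the percentage of counts in the 50 most abundant genes. A further panel gives the number of genes over 2-fold above the highest Ta library and at 1 CPM or more (log axis, not defined for Ta). The last gives the mean log2 CPM of 767 genes that rose with Co at 3 months. Co replicates 1 and 3 stand apart from the rest in every panel, with 12795 and 12728 genes of at least 1 CPM.

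As group means these measures did not separate Co from Ta. The number of genes of at least 1 CPM was 11971 ± 562 with Co and 11574 ± 137 with Ta (SD, n = 8 and 7), a difference of 396.5 genes (exact two-sided permutation test over all assignments, p = 0.099, adjusted over 4 measures 0.333). The 10 most abundant genes took 26.012% ± 4.16 of counts with Co and 27.9% ± 2.06 with Ta (SD, n = 8 and 7; p = 0.333 by the exact permutation test, 0.333 adjusted). The TMM factor, which scales a library by the bulk of its genes, was 1.155 ± 0.291 with Co and 1.0154 ± 0.0497 with Ta (SD, n = 8 and 7; p = 0.29 by the exact permutation test, 0.333 adjusted). The total count gave p = 0.181 in the same exact permutation test (adjusted 0.333). The Co group was wider than Ta, which was described and not tested. Its TMM factors ran from 0.898 to 1.712 and those of Ta from 0.949 to 1.097, with 4 Co libraries above and 2 below the Ta range. Width was not particular to Co, since the factors of Ni ran from 0.72 to 1.227. Those of P ran from 0.942 to 1.065 and those of DU from 0.879 to 1.095.

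Gene by gene, the spread within Co was also wider. Over 8890 genes averaging at least 5 CPM, the median SD of log2 CPM was 0.42 between the Co libraries and 0.3 between the Ta libraries. Ni showed the same median as Co, 0.42, while P and DU showed 0.24 and 0.27. The extreme end was fullest with Co, where 132 genes had an SD over 2 log2 units, against 26 with Ta, 15 with Ni, 16 with P and 31 with DU. Without replicates 1 and 3 the Co median was 0.31 and 44 genes had an SD over 2. An SD more than 2 times that of Ta was found in 2327 genes (26.2%) with Co, 2138 (24%) with Ni and 761 (8.56%) with Co without replicates 1 and 3.

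Single libraries were then set against the whole Ta group. For each, genes over 2-fold above the highest Ta library were counted, among 13453 genes with sufficient counts at 1 month. A gene also had to reach 1 CPM in the library counted. The counts were 1417 and 1740 in Co replicates 1 and 3, then 260, 249 and 234 in replicates 2, 4 and 5. Replicates 6, 7 and 8 had 26, 10 and 74. The 24 libraries of Ni, P and DU had 13 to 780 with a median of 61, the highest being Ni replicates 3 and 8 with 780 and 624. Co replicates 1 and 3 therefore exceeded every library of the other metals, replicates 2, 4 and 5 lay within the upper part of their range, and replicates 6 to 8 lay near or under their median. In the other direction, a gene was counted only if its lowest Ta library had at least 1 CPM. A gene scarce in Ta could thus count as above but not as below. By this rule 580, 234 and 142 genes were over 2-fold below the lowest Ta library in Co replicates 3, 8 and 1. The remaining 5 Co libraries had 4 to 79 such genes and those of the other metals 3 to 741.

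The high genes of the Co libraries recurred from library to library. With Co, 2095 genes were over 2-fold above the highest Ta library in at least 1 library, 1307 in at least 2, 336 in at least 3, 174 in at least 4 and 93 in at least 5. For Ni these numbers were 1341, 527, 80, 12 and 1, for P 264, 53, 15, 4 and 1, and for DU 499, 116, 15, 0 and 0. Of the 336 genes, 246 (73.2%) had their highest Co value in replicate 3 and 59 (17.6%) in replicate 1, against 28.6% and 10.3% of all 13453 genes. Below the lowest Ta library by over 2-fold were 941 genes in at least 1 Co library, 154 in at least 2, 45 in at least 3, 13 in at least 4 and 2 in at least 5. By the rule above, only genes of at least 1 CPM in every Ta library could be counted as below. No gene exceeded the Ta group by this margin in 7 or all 8 Co libraries.

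The 93 genes that were high in at least 5 Co libraries (0.691% of the 13453) are described here as a set chosen after their values were seen. For 82 of them the libraries were exactly replicates 1 to 5. Their mean log2 CPM was 5.01 and 5.76 in Co replicates 1 and 3. In between, replicates 2, 4 and 5 had 2.75, 2.8 and 2.23, and replicates 6, 7 and 8 had -0.62, -0.55 and -0.44. The Ta libraries lay between -0.89 and -0.17. Replicates 1 to 5 were above Ta, with 1 and 3 highest, and replicates 6 to 8 lay inside the Ta range. That split between replicates 1 to 5 and 6 to 8 was largely fixed by the choice of the genes. Among the other metals only Ni replicate 7, with 2.4, left the range of -0.98 to -0.2 that held the remaining 23 libraries.

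These 93 genes were scarce in Ta muscle. The Ta mean was under 1 CPM for 67 of them, 1 to 10 CPM for 26 and over 10 CPM for 0, and the Co mean ran from 1.13 to 603 CPM with a median of 16.4 CPM. In the test of Co against Ta 60 of them passed the filter on low counts, with log2 fold changes of 1.95 to 10.1 and a lowest adjusted p of 0.126 (edgeR). The genes high in replicates 2, 4 and 5 together were nearly all high in replicates 1 and 3, since 87 of the 88 genes that were over 2-fold above the Ta maximum in all of replicates 2, 4 and 5 were so in replicates 1 and 3 as well, against 1233 (9.17%) of all 13453 genes.

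Muscle sampled at later times gave libraries that had played no part in choosing the 93 genes. At 3 months the Co median lay above the highest Ta library for 90 of them (96.8%), against 15% of all 13453 genes. At 6 months this held for 12 (12.9%, against 3.23% of all) and at 12 months for 11 (11.8%, against 3.05%). In an edgeR fit of Co against Ta at 3 months without a filter on low counts, 89 of the 93 were called higher (adjusted p under 0.05, background 6.69% of 21763 genes) and 0 lower (background 0.267%), with a median log2 fold change of 4.69. With the replicate number as a block, which pairs Co and Ta libraries of 3 months, 29 of the 93 were called higher. In that fit 0 of them were called lower, and all 93 were on the higher side with a median of 4.01. Over all 21763 genes of that fit, 461 were called higher and 34 lower, and 52.6% were on the higher side. The Co mean lay above the Ta mean for 92 of the 93 genes at 3 months, for 63 at 6 months and for 74 at 12 months. For the means the share over all 13453 genes was not computed, and a mean can be raised by a single library.

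Differences at 1 month followed the level of the gene. Genes were placed in classes by their mean in the Ta libraries of 3, 6 and 12 months, which were not part of the test. For 943 genes under 1 CPM the median log2 fold change was 0.47, and 327 (34.7%) were higher and 21 (2.23%) lower at an unadjusted p under 0.05 (edgeR). For 4896 genes of 1 to 10 CPM the median was 0.09, with 719 higher and 219 lower, and for 5627 genes of 10 to 100 CPM it was -0.03, with 298 higher and 202 lower. For 951 genes of 100 to 1000 CPM the median was -0.12, and for 95 genes of at least 1000 CPM it was -0.2 (quartiles -0.29 and -0.09), with 0 genes past that p in either direction. Scarce genes pass the filter more readily when Co is high, and 194 tested genes had a Ta mean under 0.6 CPM, so the lowest class is favoured towards higher values.

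**Figure D2:**
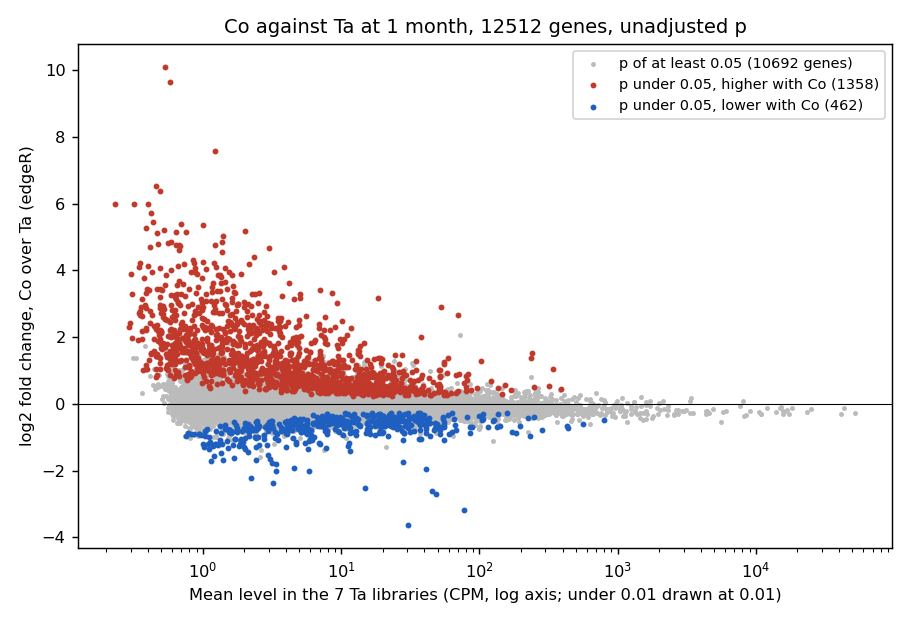
Each point is 1 of 12512 genes, with its mean in the 7 Ta libraries of 1 month (CPM, log axis) and its log2 fold change of Co over Ta. The 1358 genes higher at an unadjusted p under 0.05 lie mostly at low Ta levels and reach a log2 fold change of 10.1, and the 462 lower genes lie closer to 0.

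Per library, the shift of the most abundant genes split the Co group. Among the 95 genes of at least 1000 CPM, the median log2 difference from the Ta mean was -0.98 and -1.38 in Co replicates 1 and 3. Replicates 2 and 4 had -0.27 and -0.18, replicates 5 to 8 had 0.07, 0.17, 0.14 and 0.31, and Ta ran from -0.24 to 0.14. Among the genes under 1 CPM replicates 1 and 3 had 1.07 and 1.08, replicates 2, 4 and 5 had 0.5, 0.35 and 0.28, and replicates 6 to 8 had -0.06, 0.06 and -0.08, while Ta ran from -0.13 to 0.39. Replicates 1 and 3 were thus both the lowest at the top and the highest at the bottom, and replicates 6 and 8 lay above the Ta range at the top.

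**Figure D3:**
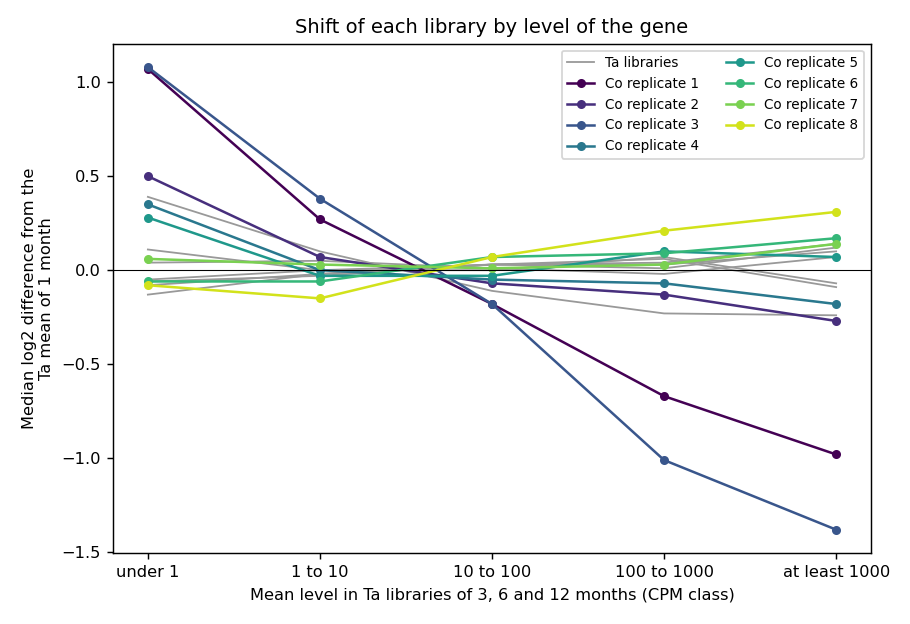
Lines join, for each library of 1 month, the median log2 difference from the Ta mean over 5 classes of gene level (CPM in Ta libraries of 3, 6 and 12 months). Co replicates 1 and 3 go from 1.07 and 1.08 in the lowest class to -0.98 and -1.38 in the highest, and grey Ta lines stay between -0.24 and 0.39.

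A further set consisted of genes without a count in Ta muscle. In the 7 Ta libraries 12967 genes had no count, which with a floor of 3 counts allows up to 0.226 CPM in the smallest of these libraries for counting error alone, and 53 of these averaged at least 1 CPM with Co. Of the 53, 34 also had no count in the 24 Ta libraries of 3, 6 and 12 months. The number of such silent genes reaching 1 CPM was 123 and 134 in Co replicates 1 and 3 and 28 in replicate 8, and 0 to 6 in the other 5 Co libraries. Ni replicate 7 had 21 and the other 23 libraries of Ni, P and DU had 0 to 3. Of the 53 genes, 45 and 42 reached 1 CPM in replicates 1 and 3, 6 each in replicates 4 and 8, 4 in replicate 2, 1 in replicate 5 and 0 in replicates 6 and 7.

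Clean separation of all Co from all Ta libraries was rare. The CPM of the groups did not overlap for 13 of 12512 genes (0.104%). Co was higher for 8 of them (0.0639%), with log2 fold changes of 0.45 to 2.66, and lower for 5 (0.04%), with -0.33 to -1.31. The 8 higher genes had Ta means of 0.341 to 24 CPM and adjusted p values of 0.126 to 0.193 (edgeR), and the 5 lower genes 0.97 to 16.7 CPM and 0.126 to 0.148. At 3 months, fitted without a filter, 7 of the 8 were again higher with Co and 3 were called higher (1 with the replicate block), while 2 of the 5 were higher and 0 called. Over the 12512 genes, 43.7% were higher at 3 months, 5.99% were called higher and 0.32% lower. With the block, 106 of the 12512 were called higher and 33 lower.

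The genes with the lowest p in each direction show these patterns in single libraries. ENSRNOG00000033912 was at 29.3 and 65.3 CPM in Co replicates 1 and 3. Replicates 2, 4 and 5 had 9, 10.5 and 3.79 CPM, and replicates 6, 7 and 8 had 0.207, 0.462 and 1.69 CPM. With Ta it was at 0.0584 to 0.668 CPM with a median of 0.135. In 6 of the 8 Co libraries it lay above every Ta library, and replicates 6 and 7 lay inside the Ta range. The log2 fold change was 5.98 with an SE of 1.16 (adjusted p = 0.126 with edgeR). Its median with Ni, P and DU was 0.131, 0.284 and 0.188 CPM, and 1 Ni library reached 10.2 CPM. At 3 months the same gene rose with Co by a log2 fold change of 6.06 with an SE of 1 (adjusted p = 0.011 with edgeR), and with the replicate block the value was 5.21 and the adjusted p 0.103.

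ENSRNOG00000026762 was likewise highest in replicates 1 and 3, at lower levels. It was at 14 and 25 CPM in Co replicates 1 and 3. Lower down, replicates 2, 4 and 5 had 3.63, 3.99 and 3.64 CPM, and replicates 6, 7 and 8 had 0.965, 0.66 and 0.916 CPM. With Ta it was at 0.116 to 0.676 CPM with a median of 0.401, so that only Co replicate 7 fell inside the Ta range. The log2 fold change was 4.22 with an SE of 0.82 (adjusted p = 0.126 with edgeR).

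Of the lower genes, ENSRNOG00000028108 was at 3.95 to 8.75 CPM in the Co libraries with a median of 6.95, and at 9.81 to 17.8 CPM with Ta with a median of 12.8. The groups did not overlap, and here replicates 1 and 3, at 5.23 and 6.38 CPM, did not stand apart from the others. The log2 fold change was -0.93 with an SE of 0.18 (adjusted p = 0.126 with edgeR). Against Ni, P and DU, whose medians were 12.4, 13.4 and 10.8 CPM, the gene was called lower with Co (log2 fold change -0.83, SE 0.18, adjusted p = 0.000777 with edgeR). At 3 months it differed from Ta by a log2 fold change of -0.08 with an SE of 0.27 (adjusted p = 0.872 with edgeR), with the Co median at 14.9 and the Ta median at 18.5 CPM. Its difference at 1 month minus that at 3 months was -0.83 log2 units with an SE of 0.34 (adjusted p = 0.999 with edgeR).

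For ENSRNOG00000020792 the Ta median was the highest of the 5 metals at 1 month. It was at 2.92 to 8.32 CPM with Co with a median of 4.22, and at 7.89 to 18.5 CPM with Ta with a median of 10.6. Only Co replicate 8, the highest, reached the Ta range. The log2 fold change was -1.26 with an SE of 0.25 (adjusted p = 0.126 with edgeR). Against the other metals, whose medians were 7.91, 4.93 and 6.13 CPM with Ni, P and DU, it was not called (log2 fold change -0.45, SE 0.34, adjusted p = 0.351 with edgeR).

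**Figure D4:**
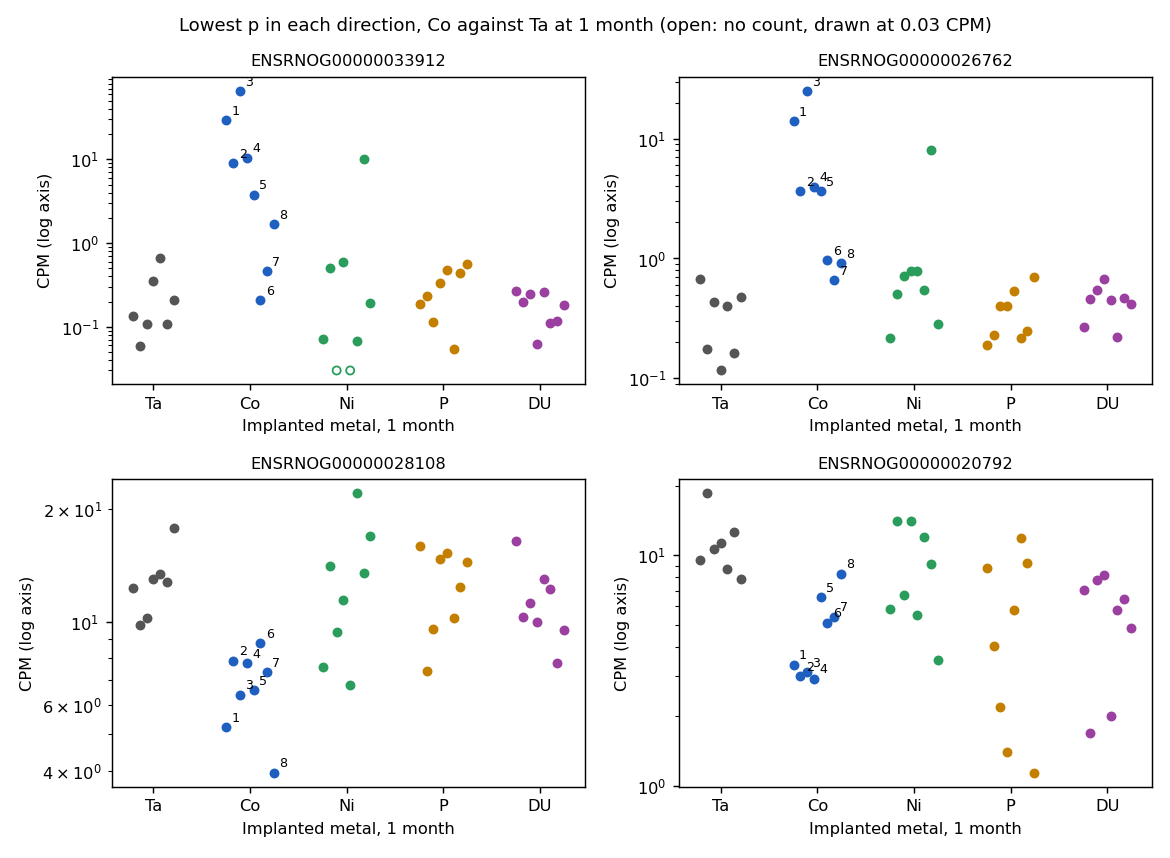
Each panel gives 1 gene, and each point its CPM in 1 library of 1 month (log axis), by implanted metal; Co points carry their replicate number and open symbols have no count. ENSRNOG00000033912 and ENSRNOG00000026762 reach 65.3 and 25 CPM in Co replicate 3, ENSRNOG00000028108 is at no more than 8.75 CPM in any Co library, and ENSRNOG00000020792 has its highest median with Ta.

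Whether Co stood apart from other implanted metals of the same time was tested against the mean of Ni, P and DU, 24 libraries that had no part in the comparison with Ta. Here 3426 of 13119 genes (26.1%) were called (edgeR adjusted p under 0.05), 2327 (17.7%) higher and 1099 (8.38%) lower with Co, and 1046 rises and 165 falls exceeded 2-fold. The same test with Ta in the place of Co called 3 of 13077 genes (0.0229%), 2 of them higher (0.0153%) and 1 lower (0.00765%). Those 3, named after their values were seen, were ENSRNOG00000019823 and ENSRNOG00000049025, higher with Ta, and ENSRNOG00000014007, lower with Ta. Each fit estimated 1 spread per gene over all its groups. The median SD of log2 CPM given above was 0.42 with Co and with Ni, 0.3 with Ta, 0.24 with P and 0.27 with DU. The spread used for Co was thus partly that of quieter groups. Limma voom with a weight per group called 1158 rises and 496 falls with Co. The comparisons with Ta and with the other metals share the Co libraries and are given side by side: the 2327 rises had a median log2 fold change of 0.9 against Ni, P and DU (quartiles 0.54 and 1.56) and of 0.67 against Ta, and the 1099 falls of -0.57 and -0.32.

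Replicates 1 and 3 had a large part in the number of calls. Of the 2327 rises, 91.8% had their highest Co value in replicate 1 or 3, against 38.5% of all genes tested, and 59% of the 1099 falls had their lowest there, against 34.9%. Among the rises 1 gene had all 8 Co libraries above all 24 others, and the median rise had 3 Co libraries above all 24. Without replicate 1 the test called 1552 higher and 655 lower, without replicate 3 it called 1306 and 756, and without both it called 260 and 257. Rises and falls were thus about equal in number among the 6 remaining Co libraries. Limma voom with sample quality weights, which gives less weight to libraries far from their group, called 729 rises and 652 falls.

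The 2 rises with the lowest p were also highest in replicates 1 and 3. ENSRNOG00000000768 was at 114 and 236 CPM in Co replicates 1 and 3. Replicates 2, 4 and 5 had 13.6, 69.4 and 29.4 CPM, and replicates 6, 7 and 8 had 0.413, 1.06 and 0.141 CPM. Its medians with Ni, P and DU were 0.276, 0.0289 and 0 CPM, and with Ta 0.0676 CPM. Its log2 fold change against the other metals was 8.2 with an SE of 0.77 (adjusted p = 6.03e-08 with edgeR), and it did not pass the filter for the test against Ta. ENSRNOG00000010663 was at 249 and 56.2 CPM in Co replicates 1 and 3. In between, replicates 2, 4 and 5 had 19, 8.88 and 5.79 CPM, and replicates 6, 7 and 8 had 0.345, 0.198 and 0.0705 CPM. Replicate 1 was its highest library and not replicate 3, and its log2 fold change was 6.71 with an SE of 0.68 (adjusted p = 1.85e-07 with edgeR).

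The 2 falls with the lowest p were smaller and more even between libraries. ENSRNOG00000042536 was at 7.46 to 16.3 CPM with Co with a median of 10.3. Its medians were 22.7, 30.5 and 27.8 CPM with Ni, P and DU, and 17.7 CPM with Ta, whose libraries ran from 6.18 to 39 CPM. Its log2 fold change was -1.37 against the other metals, with an SE of 0.18 (adjusted p = 3.7e-06 with edgeR) and -0.88 against Ta, with an SE of 0.3 (adjusted p = 0.188 with edgeR). ENSRNOG00000001465 was at 7.12 to 14.7 CPM with Co with a median of 8.78, and its medians were 16.1, 18.5 and 16.6 CPM with Ni, P and DU and 13.2 CPM with Ta. Its log2 fold change was -0.8 against the other metals, with an SE of 0.12 (adjusted p = 1.24e-05 with edgeR) and -0.46 against Ta, with an SE of 0.19 (adjusted p = 0.266 with edgeR). For both genes the Co libraries overlapped those of Ta. Replicates 1 and 3 did not stand apart, with ENSRNOG00000042536 at 7.87 and 7.46 CPM and at 7.61 CPM in replicate 8.

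The comparison most like it was Co against Ta at 3 months, which shares no library with it. There 767 genes rose (6.17% of 12429 tested) and 34 fell (0.274%) at an edgeR adjusted p under 0.05, although voom with a weight for each library called 3 (ENSRNOG00000048402, ENSRNOG00000050000 and ENSRNOG00000049829). With the replicate number as a block, 1 gene was called at 3 months (ENSRNOG00000038955, named like ENSRNOG00000049829 after its values were seen, log2 fold change 5.48, adjusted p = 0.0275 with edgeR). In that fit all 767 were on the higher side, with a median of 1.79, and the 34 on the lower side. Both sets had been chosen by their direction in the same libraries, so that direction could hardly change. The 767 and 34 genes are those of the fit without the block. In libraries of 1 month, fitted without a filter on low counts, 552 of the 767 (72%) were higher with Co at an unadjusted p under 0.05 and 0 were lower, against 13.8% higher and 3.61% lower of 22171 genes. Their median log2 fold change at 1 month was 1.49 (quartiles 0.87 and 2.47), and 750 (97.8%) were on the higher side. Over the 22171 genes the median was 0.07 and 55.8% were on the higher side. Against Ni, P and DU, in the same kind of fit, 615 of the 767 (80.2%) were called higher. This compares with 17.7% of the 21954 genes that had a count in both fits. Of the 34 falls, 6 (17.6%) were lower at that p and their median was -0.24. Against Ni, P and DU, 2 of the 34 (5.88%) were called lower, against 5.12% of the same 21954 genes, and the median of the 34 was -0.03.

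By library, the 767 genes had a mean log2 CPM of 4.26 and 4.87 in Co replicates 1 and 3. Replicates 2, 4 and 5 had 2.5, 2.34 and 2.18, and replicates 6, 7 and 8 had 1.12, 1.36 and 1.1. The Ta libraries of 1 month lay between 1.14 and 1.82. Above the highest Ta library were 734 and 755 of the 767 genes in replicates 1 and 3. In replicates 2, 4 and 5 these were 449, 376 and 339, and in replicates 6 to 8 they were 25, 47 and 89. The 5 libraries that were high in the 93 genes were also the 5 above Ta in this larger set. The sets are not separate, since 65 of the 93 were tested in the fit that gave the 767. Their overlap was not counted. Ni replicate 7, at 2.77, lay between these Co libraries, with 539 of the 767 genes above the Ta maximum. Without Co replicates 1 and 3, 201 of the 767 (26.2%) were higher at an unadjusted p under 0.05, against 7.79% of 21251 genes, and their median log2 fold change was 0.38.

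In the other direction, genes picked at 1 month were looked up at 3 months, in a fit without a filter. Of the 1358 genes higher with Co at an unadjusted p under 0.05, 568 (41.8%) were called higher at 3 months and 0 lower, and 95.4% were on the higher side with a median log2 fold change of 1.27. Over all 12512 genes tested at 1 month, 5.99% were called higher, 43.7% were on the higher side and the median was -0.07. Of the 462 lower genes, 6 (1.3%) were called lower, against 0.32% of all, and 90 (19.5%) were lower at an unadjusted p under 0.05, against 7.01% of all 12512. Their median log2 fold change at 3 months was -0.39. With the replicate block 64 of the 1358 were called higher and 0 lower, 1 of the 462 was called lower, and over all 12512 genes 106 were called higher and 33 lower. The medians were 1.03 for the higher and -0.39 for the lower genes. Across the 12253 genes tested at both times the log2 fold changes had a Pearson correlation of 0.84 and a Spearman correlation of 0.62, which describes genes measured in the same libraries and not independent replicates. Their SD was 0.66 at 1 month and 0.84 at 3 months.

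**Figure D5:**
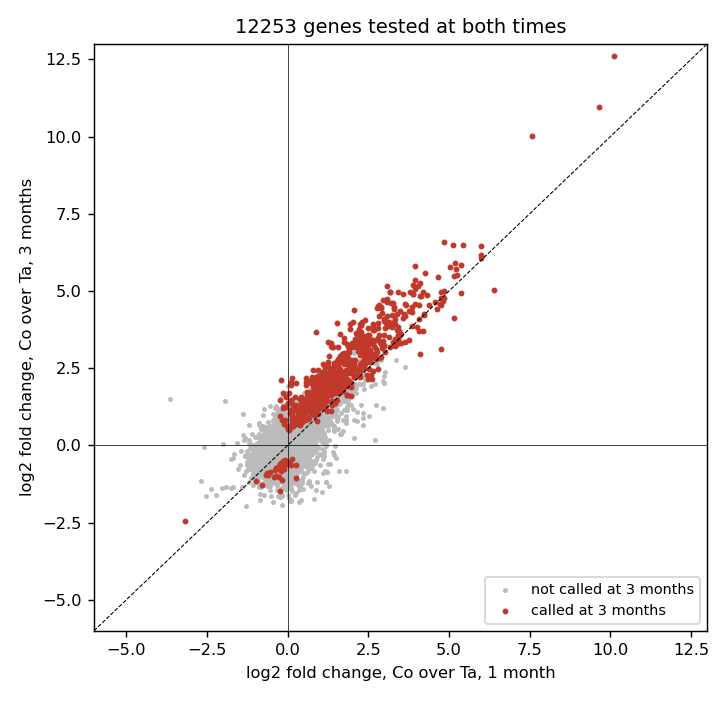
Each point is 1 of 12253 genes, with its log2 fold change of Co over Ta at 1 month (horizontal) and at 3 months (vertical); genes called at 3 months are red and the dashed line marks equal values. Red genes lie mostly on the higher side at both times and above the dashed line, and the highest is at 10.1 and 12.6. They were chosen by their values at 3 months, which favours larger differences at that time.

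The 2 genes with the largest rises of 3 months show how far the libraries of 1 month reached. ENSRNOG00000048402 was at 1010 and 3430 CPM in Co replicates 1 and 3. Lower down, replicates 2, 4 and 5 had 171, 200 and 10.4 CPM, and replicates 6, 7 and 8 had 2.48, 0.528 and 1.2 CPM. The Ta libraries had 0.0578 to 1.15 CPM. Replicates 1 to 6 lay over 2-fold above the highest Ta library, replicate 8 lay just above it and replicate 7 inside the Ta range. Its log2 fold change was 10.1 at 1 month, with an SE of 2 (adjusted p = 0.126 with edgeR) and 12.6 at 3 months, with an SE of 1.47 (adjusted p = 0.0016 with edgeR). With the replicate block it was 11.35 at 3 months and the adjusted p was 0.0666, as it was for the next gene. ENSRNOG00000050000 was at 295 and 320 CPM in Co replicates 1 and 3. Replicates 2, 4 and 5 had 12.7, 13.4 and 7.5 CPM, replicates 6 and 7 had 0.345 and 0.066 CPM, and replicate 8 had no count. With Ta it had 3 counts in replicate 5 and none in the other 6 libraries, and it did not pass the filter for the test at 1 month.

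The difference between the times was tested as an interaction over the 4 groups. No gene passed (0 of 13749, 0%, edgeR), 503 (3.66%) had an unadjusted p under 0.05, and DESeq2 and edgeR with all 150 libraries called 1 (ENSRNOG00000051002) and 2 genes (ENSRNOG00000019823 and ENSRNOG00000049025). The median SE was 0.38 for this difference, against 0.23 for the comparison at 1 month. That no gene passed in the edgeR fit of these 4 groups does not show that the effects were equal. Of the 503 genes, 213 had a positive difference. Without Co replicates 1 and 3 of 1 month, 0 genes passed in edgeR. There 2081 of 13615 genes had an unadjusted p under 0.05, 528 of them with a positive difference. Limma voom with sample quality weights also called 0, with 1873 of 13749 genes at that p and 917 of them positive. For ENSRNOG00000048402 the effect at 1 month minus that at 3 months was -2.47 log2 units with an SE of 1.93 (adjusted p = 0.999 with edgeR). The 2 genes called with all 150 libraries were those called higher with Ta against the other metals. At 1 month they averaged 15.3 and 6.41 CPM with Ta and 0.384 and 0.558 CPM with Co. With Ni, P and DU they averaged 0.38 to 0.837 CPM, so at 1 month they stood apart with Ta and not with Co.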

How the data were processed

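RNA was sequenced from rat gastrocnemius, with total RNA extracted in TRIzol, 1000 ng taken into a stranded total RNA kit, paired reads of 100 bases and 10 samples in a lane, per the labels' protocols. The values are whole-number counts per gene, deposited by the authors without normalization. Alignment used HISAT2 2.0.5 and the build Rnor_6.0, and featureCounts 1.5.0-p3 did the counting, per the submitters' processing notes. The annotation release and strand setting are not given in the sources used here. Reads of overlapping, antisense or near-identical genes may be shared. Each column was matched to 1 library by its label.

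Low-count genes were dropped by filterByExpr in each comparison. Tests were quasi-likelihood F tests (glmQLFTest after TMM scaling, robust dispersion estimates and a robust glmQLFit) in edgeR 4.0.16, run with limma 3.58.1 under R 4.3.3. P-values were adjusted by Benjamini-Hochberg over every gene tested, at a threshold of 0.05. An SE was computed as the absolute log2 fold change divided by the root of F. For CPM the TMM factors came from all 150 libraries together, and a prior count of 2 was used in log2 CPM. Scripts were tested on simulated counts. Libraries of 1 month were checked for duplicates, and the closest pair within Co had a chi-square of 17.3 per degree of freedom, above sampling noise.

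The comparison, gene lists and sets were chosen with earlier results of these data known. The rule for named genes took the 2 higher and 2 lower genes of lowest unadjusted p averaging at least 1 CPM in either group, in Co against Ta and in Co against the other metals. Those of 3 months are the 2 largest log2 fold changes among its calls with at least 1 CPM. The other parts of the rule need gene names and were not applied. In same-numbered Co and Ta libraries of 3 months, deviations from the group means had correlations of 0.13 to 0.46 (8 pairs, all over 0.1). Of these 8 Co libraries, 5 correlated best with their own number. The labels give no pairing, so the block was a choice made from the data. Its values stand beside the results of 3 months. At 1 month 4 of 7 such pairs exceeded 0.1 and 2 Co libraries correlated best with their own number, and the block served as an alternative only. As alternatives, edgeR was run with RLE size factors, unfiltered, with legacy=FALSE, with all 150 libraries and with the replicate number as a block. Others were DESeq2 1.42.0, limma voom with sample quality weights, no scaling factors and leaving out each library. Chosen after seeing the data were leaving out Co replicates 1 and 3 together, leaving out each Co library against the other metals, voom with a weight per group, and Ta against the other metals.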

Additional observations from a re-analysis of the deposited data

Results flagged for a closer look

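Values were examined for a single library far from the rest of its group, by the gap to its neighbour over the range of the group (Dixon's ratio at its 95% critical value). This was done for 63 groups of values of 1 month. Chance would flag about 1 in 20 such groups if values were normally distributed. That rate does not hold here, since CPM of scarce genes are skewed and some are 0. Where only 1 library of a group had a count, the ratio is 1 whatever that count. The ratio marked 12 values, each of them a highest value, and their number was not set against chance.

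Within Co, ENSRNOG00000033912 reached 65.3 CPM in 1 library with the next at 29.3 CPM, and ENSRNOG00000048402 reached 3430 CPM with the next at 1010 CPM, both in replicate 3. ENSRNOG00000010663 reached 249 CPM, in replicate 1, with the next at 56.2 CPM.

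Within Ni, ENSRNOG00000033912 reached 10.2 CPM in 1 library with the next at 0.588 CPM, and ENSRNOG00000026762 reached 7.98 CPM with the next at 0.786 CPM. ENSRNOG00000000768 reached 3.86 CPM with Ni (next 1.12 CPM), ENSRNOG00000048402 reached 46.1 CPM (next 1.98 CPM) and ENSRNOG00000050000 reached 8.71 CPM (next 0.38 CPM). Replicate 7 was the highest Ni library for each of these genes except ENSRNOG00000000768, where it was replicate 5 and replicate 7 came next.

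Within Ta, ENSRNOG00000000768 had 0.437 CPM in 1 library with the next at 0.161 CPM, and ENSRNOG00000050000 had 0.2 CPM in 1 library with no count in the others. Within DU, ENSRNOG00000000768 had 0.276 CPM (next 0.129 CPM) and ENSRNOG00000050000 had 0.0601 CPM with no count in the others. These Ta and DU values rest on 8 counts or fewer.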

How the results depend on the processing

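For Co against Ta at 1 month, 0 genes were called in 23 of 25 alternatives, and 958 with DESeq2 and 1697 with all 150 libraries. Leaving out each library gave 0 to 0 calls and 1175 to 2227 genes at an unadjusted p under 0.05. Against Ni, P and DU, 1381 genes were called by voom with sample quality weights, 1654 by voom with a weight per group and 517 without Co replicates 1 and 3. Leaving out each Co library gave 2062 to 3972, with 2207 without replicate 1 and 2062 without replicate 3. For Co against Ta at 3 months the number of calls was 1515 without a filter, 2370 with DESeq2, 3 with voom with sample quality weights, 3268 with all 150 libraries and 1 with the replicate block. The interaction called 1 gene with DESeq2 and 2 with all 150 libraries. The causes of these differences were not tested.

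With the replicate number as a block, Co against Ta at 1 month gave 0 calls, Co against the other metals 2547 and the interaction 0. The numbers were not taken to pair the libraries of 1 month. Correlations of deviations in the 7 same-numbered pairs of Co and Ta ran from -0.2 to 0.36, 4 exceeded 0.1, and 2 libraries correlated best with their own number.

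At 1 month no named gene changed direction under any alternative that tested it. The 4 named from Co against Ta, with ENSRNOG00000010663 and ENSRNOG00000048402, passed the adjusted threshold against Ta with DESeq2 and with all 150 libraries and in no other. At 3 months ENSRNOG00000042536 and ENSRNOG00000001465, not called there, went to the higher side with voom with sample quality weights (0.12 and 0.15). ENSRNOG00000033912 and ENSRNOG00000000768 lost their calls of 3 months with voom and with the block, and ENSRNOG00000048402 and ENSRNOG00000050000 with the block. Composition measures with 5 CPM or the 50 most abundant genes kept their direction, with differences of 283.2 genes and -4.152%. Alternatives for gene lists and the mitochondrial share were not run, since they need gene names. Depth limits mainly the scarce genes: several Ta values of the named genes rest on 1 to 20 counts.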
